A study of Mus musculus with 16 samples.

Results

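The genes described here are 10 genes of the actin cytoskeleton that serum response factor (SRF) is known to regulate, Srf itself included, out of 22208 protein-coding genes of the mm9 annotation. They were chosen by name with results of these data already known, and each was described in a window of its gene body plus 50 kb on either side. All libraries came from 3T3-L1, a preadipocyte line of mouse embryo fibroblasts, which was induced to differentiate with MDI (methylisobutylxanthine, dexamethasone and insulin) after the cells had reached confluence. H3K27ac, the acetylated histone mark of active promoters and enhancers, was profiled by ChIP-seq in cells stably transduced with an empty retrovirus and in cells with a retrovirus for SETD5 carrying a C-terminal V5 tag, each at 0 h and 48 h. The SETD5 transgene was driven by a weak viral LTR promoter in a stably transduced line, and the empty-vector cells still had their own SETD5. Per the study, the tagged protein is itself degraded in the course of differentiation, so the comparison of vectors at 48 h is not one of cells that held the added protein throughout. SETD5-V5 itself was profiled at 0 h and 6 h with an antibody against the tag; the labels name the virus for replicate B only. H3K4me1, which marks enhancers whether primed or active, was profiled at 0 h and 48 h and endogenous SETD5 at 0 h and 6 h. The labels give the SETD5-V5 virus for the H3K4me1 libraries whereas the study shows them as untransduced cells, and this conflict could not be resolved. H3K27ac and SETD5-V5 had replicates A and B in each condition, and the other 4 conditions had 1 library each.

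SRF is a transcription factor that binds the CArG box, a short A and T rich core between a pair of C and a pair of G. It works with myocardin-related transcription factors such as MKL1, which are held in the cytoplasm by monomeric actin and enter the nucleus when actin polymerises. SRF targets include actin itself, tropomyosins, calponins and adhesion proteins, and SRF regulates its own gene. In cultured preadipocytes a stretched fibroblast shape with actin stress fibres is known to give way to a rounded shape with cortical actin during adipogenesis.

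The deposited lists give islands, runs of 200 bp windows that the authors' caller found enriched, with their position and a score. The 8 H3K27ac lists held 31292 to 39949 islands covering 103 to 122 Mb. SETD5-V5 lists of replicates A and B held 16054 and 6666 islands at 0 h and 35573 and 27220 at 6 h, so replicate B at 0 h stands apart as the thinnest. The lists give no read counts, so the depth behind an island is unknown here. A region missing from a list was below the caller's threshold, not shown to lack the mark. The study does report total reads per library. Each SETD5 H3K27ac library had more of them than the empty-vector library of the same time and letter. Depth thus cannot be told apart from vector between them, and its part was not tested. For SETD5-V5 at 0 h, replicate B had more total reads than replicate A despite its thinner list. ChIP of a cell population cannot tell fewer marked cells from a weaker mark per cell. Marker lists were read by the window rule given below, for 48 h against 0 h with the empty vector. Over all 16930 genes tested, 25.2% were higher and 15.2% lower. Of 7 adipocyte genes 6 were higher and 0 lower. Of 6 preadipocyte genes, 1 was higher (Ly6a) and 2 lower (Dlk1 and Cd34). Of 4 skeletal and cardiac muscle genes tested, 2 were higher (Nkx2-5 and Tnnt2) and 0 lower. Of 4 macrophage and endothelial genes tested, 0 were higher and 1 lower (Tek). None of the 6 muscle genes had a promoter island in both empty-vector lists at either time. Among the 6 macrophage and endothelial genes found, 2 had one at 0 h and 0 at 48 h.

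The promoters are shown first because the CArG box is what ties these genes to SRF. An exact match to the box (CC, then 6 bases that are each A or T, then GG, searched on both strands) was found in the 250 bases before the start of 4 of the 10 genes, and in 1.35% of all 22208 promoters. Below are the 200 bases upstream of the outermost annotated start of these 4 genes and of Acta2, the smooth muscle actin gene, in mm9 and read on the gene's strand. Capitals mark the exact CArG matches.
Tagln, chr9:45744142-45744341, minus strand: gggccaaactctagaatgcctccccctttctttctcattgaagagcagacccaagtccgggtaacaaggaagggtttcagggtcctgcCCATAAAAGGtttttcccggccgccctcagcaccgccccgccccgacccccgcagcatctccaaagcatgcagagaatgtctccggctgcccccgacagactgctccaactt
Myl9, chr2:156600956-156601155, plus strand: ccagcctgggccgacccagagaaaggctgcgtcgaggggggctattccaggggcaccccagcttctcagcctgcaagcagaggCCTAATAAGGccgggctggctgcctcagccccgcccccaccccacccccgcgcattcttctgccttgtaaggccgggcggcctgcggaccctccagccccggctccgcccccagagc
Cnn2, chr10:79451129-79451328, plus strand: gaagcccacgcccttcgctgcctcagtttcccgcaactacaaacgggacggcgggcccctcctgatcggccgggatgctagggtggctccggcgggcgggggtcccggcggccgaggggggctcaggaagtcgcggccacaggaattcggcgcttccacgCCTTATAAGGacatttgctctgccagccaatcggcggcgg
Srf, chr17:46693112-46693311, minus strand: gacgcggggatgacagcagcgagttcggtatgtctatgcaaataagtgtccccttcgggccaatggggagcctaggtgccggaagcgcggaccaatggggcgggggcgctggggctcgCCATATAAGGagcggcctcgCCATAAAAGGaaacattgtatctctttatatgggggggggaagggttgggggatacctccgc
Acta2, chr19:34329827-34330026, minus strand: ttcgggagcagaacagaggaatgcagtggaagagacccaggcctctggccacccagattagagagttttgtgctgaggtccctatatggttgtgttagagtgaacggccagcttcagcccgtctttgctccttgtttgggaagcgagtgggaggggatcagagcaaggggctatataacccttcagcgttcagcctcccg
The match began 112 bases before the start in Tagln, 117 in Myl9, 40 in Cnn2, and 82 and 62 in Srf. Acta2 had no exact match in these bases. From 1000 bases before to 200 after the start, Tagln had a second match 11 bases into the transcript, and Vcl (262 bases before the start) and Tpm2 (623 before) joined the list, which made 6 of 10 genes against 6.09% of all promoters. The promoter table of RefSeq (GRCm38.p6, 250 bases before to 50 after each start) held 9 of the 10 genes, all but Tagln, of which 5 (Myl9, Cnn2, Vcl, Srf and Lima1) had a match, against 1.81% of its 27025 gene symbols. For comparison, TGANTCA, the AP-1 site, lay in the 250 bases before the start of 0 of the 10 genes and 5.99% of all promoters, and GGAATG, a TEAD site, in those of 2 (Vcl and Acta2) and 11.4%. A match is a string of letters and not evidence of binding.

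In empty-vector cells the genes did not move as a group between 0 h and 48 h. The H3K27ac cover, the bases of islands inside the window, fell at Acta2, Myl9 (a regulatory myosin light chain) and Tpm1 (a tropomyosin, which lies along actin filaments), and rose at Tagln (transgelin or SM22, an actin-bundling protein). A gene was called where both libraries of one time lay beyond both of the other and the means differed at least 1.5-fold. By that rule 3 of 10 genes were lower, against 15.2% of the 16930 genes tested, and 1 was higher, against 25.2%. The median log2 ratio was -0.11 over the 10 genes and 0.14 over all genes tested. With 2 libraries against 2 the smallest two-sided exact permutation p is 0.333, and the genes were chosen with results known, so no test of significance is given for any of these comparisons.

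The window of Acta2, the actin of smooth muscle and of activated fibroblasts, had 35621 and 26400 bp of H3K27ac in replicates A and B at 0 h and 12221 and 14400 bp at 48 h. The means were 31010 bp ± 6520 and 13310 bp ± 1541 (SD, n = 2), a ratio of 0.429, and the times did not overlap. The island at the Acta2 promoter (mm9 chr19, gene body 34315580 to 34329826, minus strand) shrank from 8000 and 8200 bp to 1800 and 2000 bp. Its place in its own list dropped as well. At 0 h, 3.71% and 5.01% of islands scored higher, and at 48 h 95.8% and 81.8% did, so a promoter among the strongest islands of preadipocytes was among the weakest at 48 h. A second block of 6600 bp centred 10.1 kb upstream, which overlapped no annotated protein-coding gene, had 6600 and 4000 bp of H3K27ac at 0 h and none at 48 h. The flanking promoters of Stambpl1 and Fas kept theirs in all 8 lists.

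Tpm1 kept a smaller part of its cover than Acta2. Its window held 46400 and 46200 bp at 0 h and 14000 and 16400 bp at 48 h, a ratio of 0.328 with no overlap. Tpm1 has alternative promoters, an outermost one and an internal one that makes shorter isoforms. At 0 h a single island of 12000 bp in A and 14000 bp in B spanned both. At 48 h the outermost start, where 13 annotated starts lie within 0.3 kb, had no island within 1 kb in either empty-vector list, and the nearest island began 4.81 kb downstream in A and 5.21 kb in B. The internal starts, 5.4 to 5.7 kb downstream, kept an island of 4200 bp in A and 5000 bp in B, with 29.8% and 29.9% of islands ranked higher against 2.64% and 2.25% at 0 h. Beyond the gene's end, a block of 16000 bp centred 41.4 kb from the start had 14800 bp of H3K27ac in each replicate at 0 h and 4000 and 3400 bp at 48 h.

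Myl9 had the lowest ratio of the 10 genes. Its window held 9845 and 9045 bp at 0 h and 2045 bp in both replicates at 48 h, a ratio of 0.217. Most of the bases lost were not at Myl9 but in the block at the promoter of Dlgap4, centred 47.3 kb upstream and partly outside the window, which in full went from 16000 and 13600 bp to 5400 and 7800 bp. The 2045 bp that remained were the clipped edge of the island at the Dlgap4 promoter, so by 48 h no island of empty-vector cells was left at Myl9 itself. The promoter island (1600 and 1400 bp at 0 h, 59.1% and 70.3% of islands ranked higher) was absent from both 48 h lists. This island held the CArG box shown above.

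Tagln went the other way. Its window rose from 12600 and 10400 bp at 0 h to 25000 and 23341 bp at 48 h, a ratio of 2.10. Most of that increase lay not at Tagln but at neighbours. The block at the Sidt2 promoter, 21.6 kb upstream, went from 3000 and 3200 bp to 7800 and 8600 bp. The block inside Pcsk7, 19.3 kb downstream of the start, went from 5000 and 2600 bp to 8200 and 7800 bp. At Tagln itself no island was listed at 0 h, and at 48 h an island of 3600 bp in A and 1400 bp in B lay over the gene body. The one in A came within 1 kb of the start, with 74.1% of islands ranked higher, and the one in B did not.

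**Figure D1:**
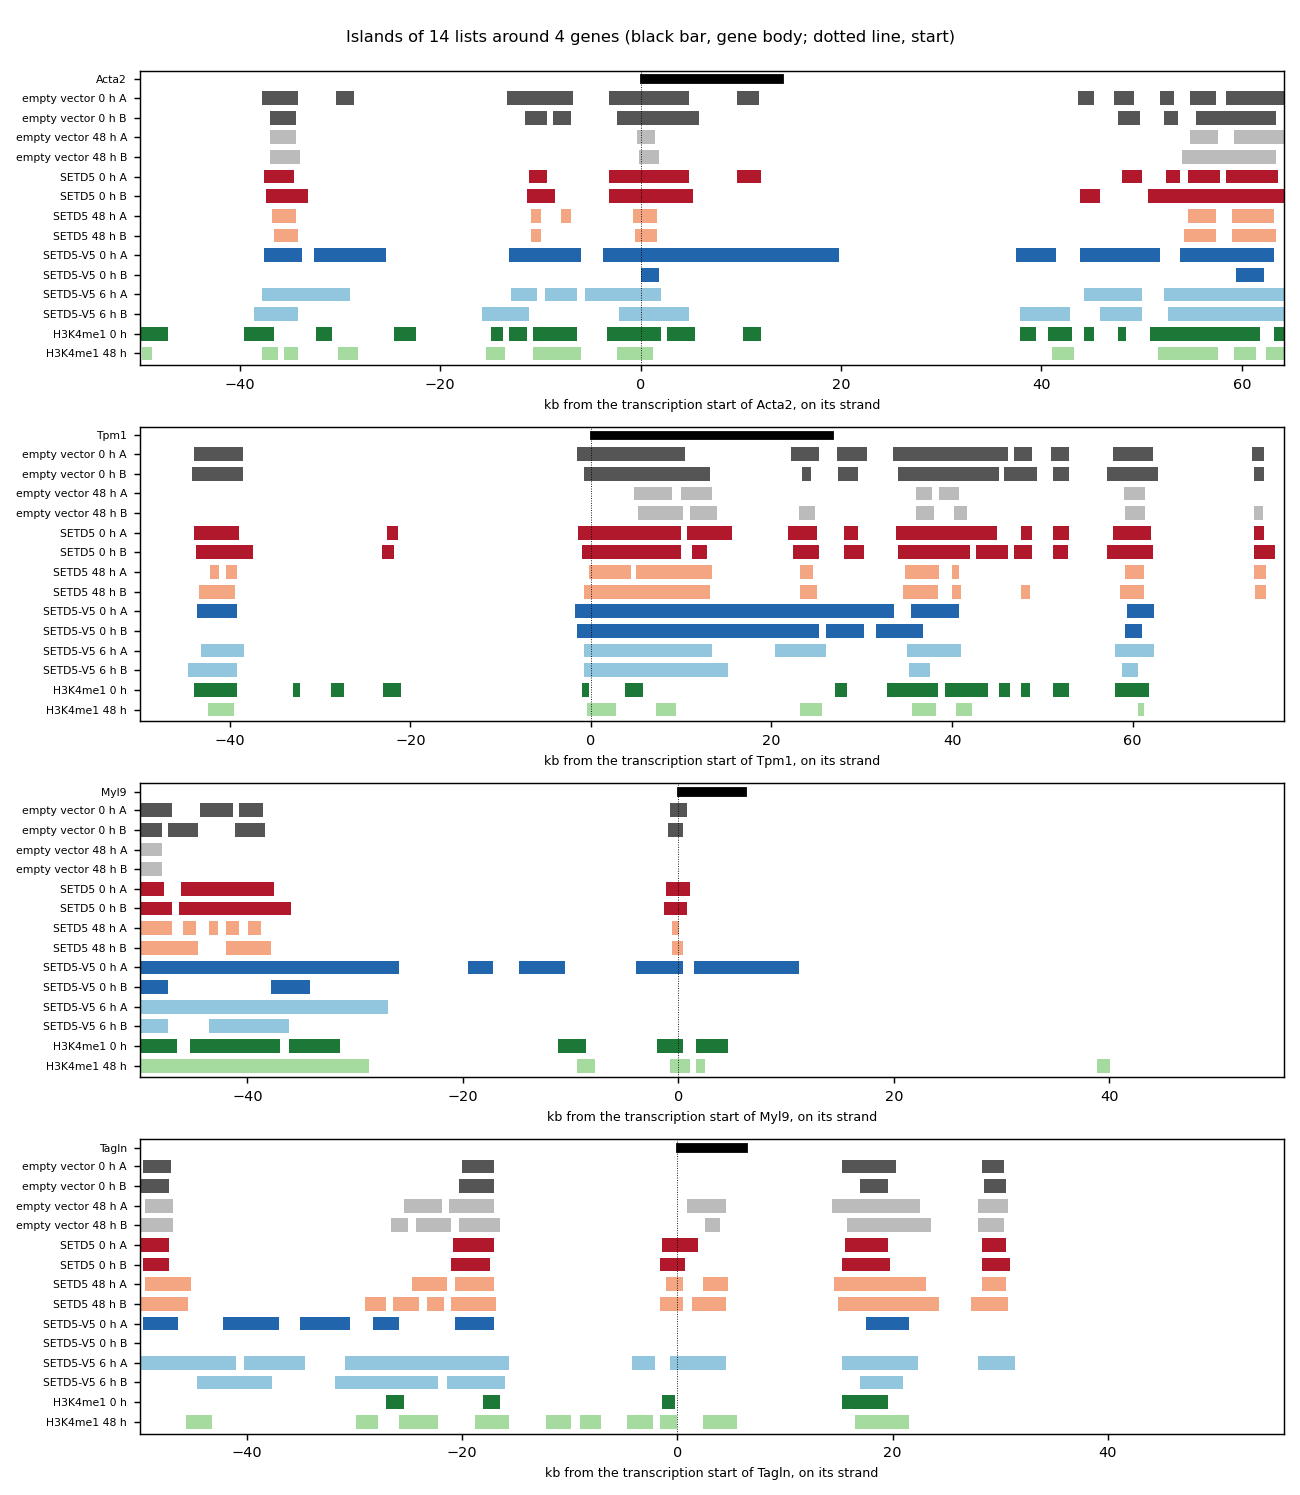
Islands of H3K27ac (grey and red rows), SETD5-V5 (blue) and H3K4me1 (green) around Acta2, Tpm1, Myl9 and Tagln, with the distance from the outermost transcription start in kb on the gene's strand, 1 row per library. The 8 kb island at the Acta2 promoter and the islands over both Tpm1 promoters at 0 h are short or gone in the empty-vector rows at 48 h, while Tagln gains islands.

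The other 6 genes were not called. Cnn2, the calponin of non-muscle cells, had 18007 and 21807 bp at 0 h and 15400 and 15600 bp at 48 h, which did not overlap but differed by a ratio of only 0.779. Its window holds the starts of 7 other genes. At 0 h a single island of 8000 bp in A and 10200 bp in B spanned the Cnn2 promoter and that of its neighbour ORF61, with 0.540% and 0.443% of islands ranked higher. At 48 h this block was split by a gap upstream of the Cnn2 start, and its total cover of 8200 and 7800 bp overlapped that at 0 h. The piece at Cnn2 measured 3200 bp in both replicates, with 25.4% and 14.7% of islands ranked higher. Lima1, which encodes the actin-bundling protein EPLIN, had 35800 and 35200 bp at 0 h and 53400 and 51200 bp at 48 h, a ratio of 1.47 that was just short of 1.5. Its outermost start kept a modest island (50.4% and 46.9% ranked higher at 0 h, 77.9% and 78.6% at 48 h). The internal start 55.3 kb downstream kept an island in the top of every list, with 0.653% and 0.434% ranked higher at 0 h and 1.51% and 1.04% at 48 h.

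Srf had 7000 and 8400 bp at 0 h and 10200 and 8800 bp at 48 h, a ratio of 1.23, and its promoter island, which held both CArG boxes, stayed high in rank (3.15% and 5.56% of islands ranked higher at 0 h, 10.4% and 13.0% at 48 h). Vcl, which encodes the focal adhesion protein vinculin, had 25546 and 23200 bp at 0 h and 24400 and 17200 bp at 48 h, with overlap. Its promoter island had 21.0% and 24.6% of islands ranked higher at 0 h and 22.2% and 24.1% at 48 h. Tpm2, the other tropomyosin, had means of 10500 bp at both times. Cnn1, the calponin of smooth muscle, had no promoter island in any of the 16 lists, and its 3000 to 5600 bp of empty-vector H3K27ac lay at the promoters of its neighbours. The 10 ratios thus ran from 0.217 to 2.10.

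**Figure D2:**
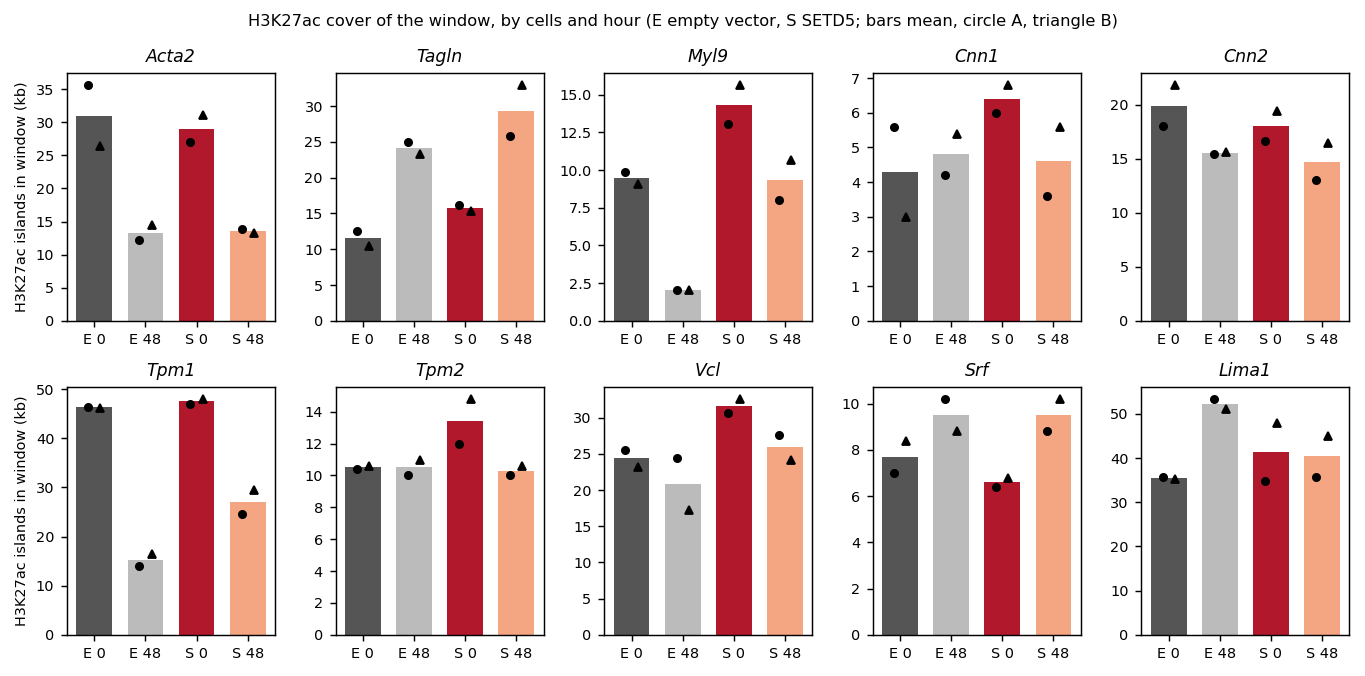
H3K27ac cover of each gene's window in kb (vertical axes from 0, separate for each gene), with bars for the mean of 2 replicates, circles for replicate A and triangles for replicate B, for empty-vector (E) and SETD5 (S) cells at 0 h and 48 h. Acta2, Myl9 and Tpm1 are lower at 48 h than at 0 h in both kinds of cells, and Myl9 and Tpm1 are higher in SETD5 than in empty-vector cells at 48 h.

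SETD5-transduced cells were compared with empty-vector cells to ask where transduction with SETD5 went with more or less acetylation. At 48 h the cover was higher with SETD5 at 2 of the 10 genes, Myl9 and Tpm1, against 11.2% of genes tested, and lower at 0, against 13.4%. Myl9 had 8045 and 10645 bp in SETD5 cells at 48 h against 2045 bp in both empty-vector libraries, a ratio of 4.57. Its promoter island was present in both SETD5 lists, at 600 and 1000 bp with 85.2% and 73.2% of islands ranked higher, so it was weak, and the rest of the gain lay around Dlgap4 at the upstream edge of the window. Tpm1 had 24600 and 29400 bp against 14000 and 16400 bp, a ratio of 1.78. There the outermost start had an island of 4600 bp in A and 14000 bp in B, where the empty-vector lists had none.

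The 48 h values with SETD5 were still below those at 0 h in the same cells. From 0 h to 48 h the SETD5 cells had less H3K27ac at Acta2, Myl9 and Tpm1, 3 of 10 genes against 16% of those tested, and more at Tagln, 1 against 17.6%. Within 10 kb of the gene body Cnn1 took the place of Tpm1, and the Myl9 call was lost without replicate A, which left 2 genes. The ratio of 48 h to 0 h was 0.465 at Acta2, 0.651 at Myl9, 0.568 at Tpm1 and 1.86 at Tagln, where the empty-vector cells had 0.429, 0.217, 0.328 and 2.10. Acta2 itself covered the same length with and without SETD5 at 48 h (13800 and 13200 bp against 12221 and 14400 bp). At 0 h, Myl9 alone of the 10 genes was higher in SETD5 cells, at 13045 and 15645 bp against 9845 and 9045 bp, with 8.62% of genes tested called higher and 4.25% lower. That call rested on a ratio of 1.52 and was lost under several alternatives given below.

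**Figure D3:**
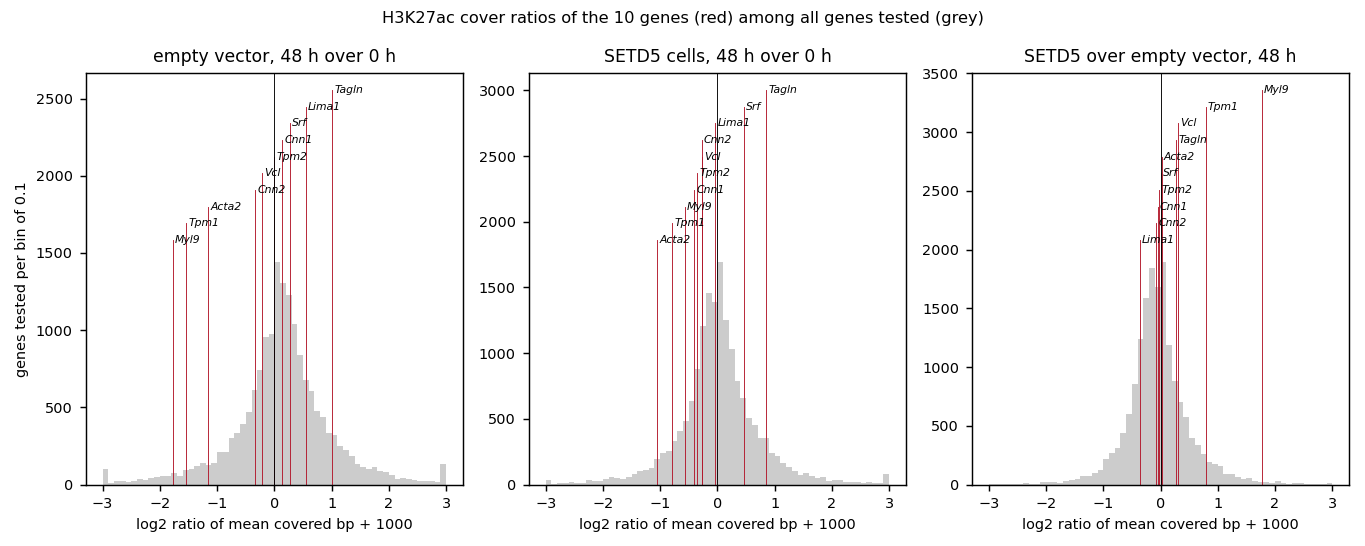
Log2 ratio of mean H3K27ac cover (plus 1000 bp) for all 16930 genes tested (grey, genes per bin of 0.1, values beyond 3 in the end bins) and for the 10 genes (red lines with names), in 3 comparisons. Acta2, Tpm1 and Myl9 lie left of the bulk and Tagln right of it from 0 h to 48 h in empty-vector cells, and Myl9 and Tpm1 lie right of it for SETD5 over empty vector at 48 h.

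The rank of the promoter island within its list gives a second view that leaves out islands elsewhere in the window, though an island that spans a neighbour's promoter too, as at Cnn2, is ranked as a whole. A promoter was called where both libraries lay beyond both others and the mean percent of islands ranked higher differed by at least 10 points, a rule set after the values were seen. In empty-vector cells the promoters of Acta2, Myl9, Cnn2 and Tpm1 were lower in rank at 48 h, 4 of the 9 genes with an island in any of these lists, against 13.0% of 11715 promoters, and Tpm2 was higher, against 24.0%. With a promoter of 5000 bp on either side of a start the Cnn2 call was lost and 3 genes were left. At 48 h the same comparison between vectors, which shares the empty-vector libraries, had Acta2, Myl9, Cnn2 and Tpm1 higher in SETD5 cells, against 23.6%, and 0 lower, against 6.60%. The SETD5 lists at 48 h held more islands than the empty-vector lists, and higher calls were more frequent than lower ones over all promoters. With equal numbers of islands per list the Myl9 call was lost, which left 3 genes, and with the wider promoter Tagln took the place of Cnn2 among the 4.

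At Cnn2 2.01% and 1.80% of islands ranked higher in SETD5 cells at 48 h, where 25.4% and 14.7% did in empty-vector cells. The SETD5 island was the unsplit block of 7800 and 8600 bp over both promoters, against 8200 and 7800 bp for the 2 empty-vector pieces together, so the lengths covered overlapped between vectors. At the Acta2 promoter 52.2% and 51.1% ranked higher with SETD5 against 95.8% and 81.8% without, although the islands of 2400 and 2200 bp were hardly longer. Tpm1 had 14.1% and 8.13% against 29.8% and 29.9%. Within SETD5 cells, Acta2, Myl9 and Tpm2 were lower in rank at 48 h than at 0 h (8.47% of promoters) and Tagln was higher (19.2%).

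At 0 h, before induction, the promoters of Tagln, Myl9, Tpm2 and Vcl were higher in rank in SETD5 cells, 4 of 9 against 18.1% of promoters, and 0 were lower, against 2.77%. The SETD5 lists at 0 h also held more islands (39949 and 36604) than the empty-vector lists (33704 and 35460). This comparison was not rerun with equal numbers of islands. Tagln had an island of 3400 bp in A and 2400 bp in B in SETD5 cells at 0 h (79.6% and 91.2% ranked higher) and none in empty-vector cells. At Myl9, 22.2% and 23.7% ranked higher in SETD5 cells against 59.1% and 70.3%. At Vcl the values were 9.12% and 11.0% against 21.0% and 24.6%. A promoter island was present in both empty-vector lists for 8 of 10 genes at 0 h, all but Tagln and Cnn1, and for 7 at 48 h, when Myl9 had lost its own, against 46.5% and 47.5% of all genes.

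**Figure D4:**
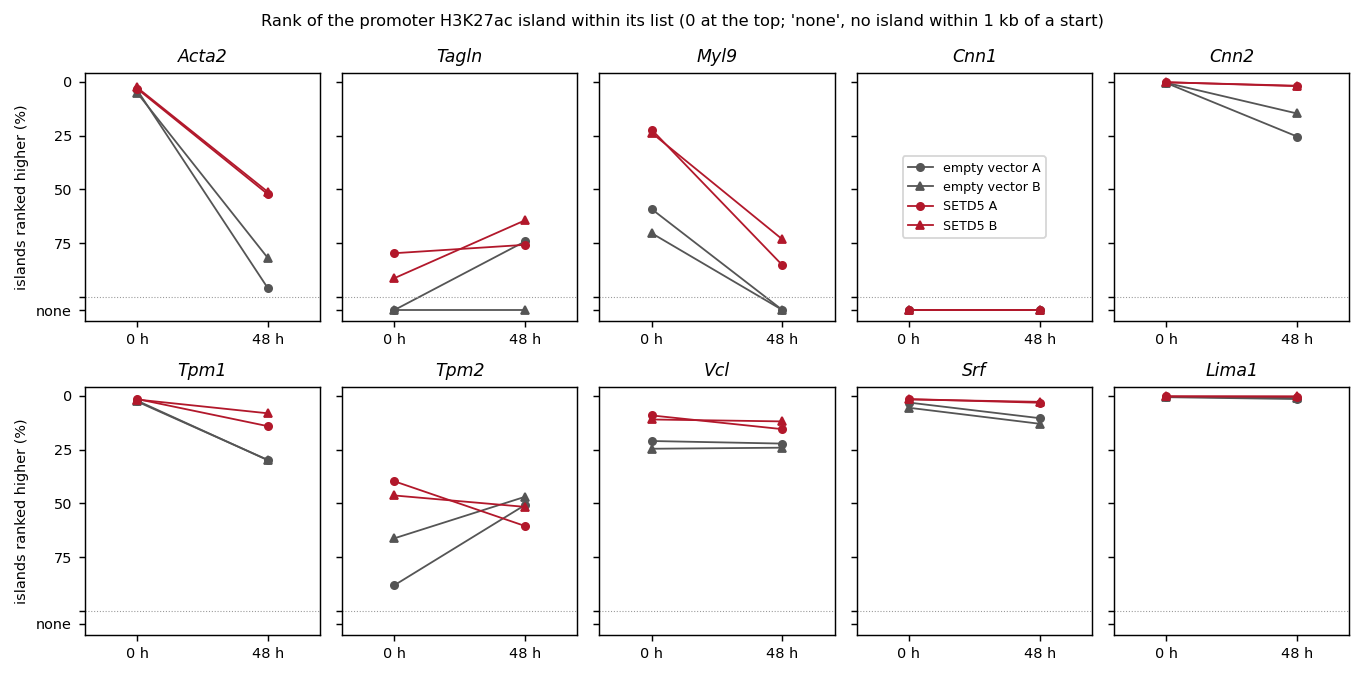
Percent of islands of the same list that scored higher than the H3K27ac island at each promoter, at 0 h and 48 h (axis inverted, 0 at the top, none for no island within 1 kb of a start), in empty-vector (grey) and SETD5 (red) cells, replicate A as circles and B as triangles. The lines of Acta2, Myl9, Cnn2 and Tpm1 drop in empty-vector cells and end lower there than in SETD5 cells, and Tpm2 crosses over.

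Over all 8 H3K27ac lists merged, the windows held 70 of the 53150 regions of the series, 19 of them at promoters of other genes. Of the 46 regions present in both empty-vector lists at 0 h, 9 were absent from both at 48 h, against 26.7% of such regions in the genome. They lay at Acta2 (2), Myl9 (1), Cnn2 (1), Tpm1 (3) and Vcl (2). Of the 44 present in both lists at 48 h, 8 were absent from both at 0 h, against 22.6%. These lay at Tagln (1), Vcl (4) and Lima1 (3). At Vcl, whose window cover overlapped between times, blocks 46.1 kb upstream and 49.0 kb downstream of its start were lost and blocks 11.7, 16.4, 63.6 and 118.4 kb downstream appeared.

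Of the 9 lost regions, 5 were present in both SETD5 lists at 48 h, against 23.4% of lost regions in the genome. They were the Acta2 block 10.1 kb upstream (2000 and 1000 bp), the Myl9 promoter, a block 45.1 kb downstream of the Cnn2 start (1000 and 2200 bp), the Tpm1 block 40.8 kb upstream (2200 and 4000 bp) and the Vcl block 46.1 kb upstream (1600 bp in each). In each of them the cover in SETD5 cells at 48 h was shorter than in empty-vector cells at 0 h, save for Cnn2 in replicate B. SETD5 cells at 0 h had 1800 and 2800 bp at the Acta2 block and 1400 and 2000 bp at the Cnn2 block. Against these values neither block was shorter at 48 h in both replicates, while the other blocks were. Of the 8 gained regions, 2 were absent from both SETD5 lists, against 24.2%, both inside Vcl. All 9 lost regions held H3K4me1 at 0 h, against 60.7% of lost regions. All 5 present with SETD5 still held it at 48 h, where 42.7% of such regions in the genome did, and 0 of the other 4 held it, where 31.1% did. The doubt over the vector of the H3K4me1 libraries bears on this, since cells with SETD5-V5 would share their vector with the lists that kept the mark.

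The lost regions held 5 CArG boxes over 38.6 kb, 1.30 per 10 kb, where all lost regions of the genome held 0.606 per 10 kb. All 70 regions of the windows held 0.864 per 10 kb against 0.564 for the 53150 regions. A pair is shown. One is the Acta2 block that both SETD5 lists held at 48 h. The other is a Tpm1 block 28.9 kb from the start, just past the gene's end, that neither SETD5 list held at 48 h. They are 120 bases of mm9 around the box, in capitals, both outside annotated protein-coding genes.
Acta2, chr19:34340269-34340388, plus strand: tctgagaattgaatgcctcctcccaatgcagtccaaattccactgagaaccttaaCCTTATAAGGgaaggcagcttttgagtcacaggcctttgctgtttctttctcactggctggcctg
Tpm1, chr9:66866656-66866775, plus strand: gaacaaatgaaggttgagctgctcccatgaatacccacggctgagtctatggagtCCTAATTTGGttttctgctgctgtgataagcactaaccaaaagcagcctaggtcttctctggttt
A box lay in 30.6% of all regions of about the length of the Acta2 block (within 20%) and in 16.8% of those of about the length of the Tpm1 block, so a single match in a region of this size is common. AP-1 and TEAD sites lay in the lost regions at 3.11 and 6.74 per 10 kb, against 3.75 and 6.96 in all lost regions.

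SETD5-V5 lay at the promoters of Acta2, Cnn2, Tpm1, Vcl and Lima1 in both replicates at 0 h, 5 of 10 genes against 6.30% of all genes, and at the promoters of those 5 in both replicates at 6 h, against 24.2%. All 5 also had a promoter H3K27ac island in both empty-vector lists at 0 h, which 46.5% of all genes had, and the part of acetylation in this count was not tested. The islands differed widely in length. In replicate B at 0 h those at Acta2 and Cnn2 were short and low in rank (1800 and 2400 bp, 80.7% and 88.7% of islands ranked higher). The Cnn2 island in B at 6 h was too (3600 bp, 86.8%). Those at Tpm1 and Lima1 were long. At Tpm1 a single SETD5-V5 island of 35400 bp in A and 26800 bp in B at 0 h ran from the outermost start past the gene's internal starts, and at 6 h it was 14200 and 16000 bp. At Lima1 the island over the internal start measured 65400 bp in A but 16000 bp in B at 0 h, and 30800 and 33200 bp at 6 h.

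Over the whole window SETD5-V5 rose from 0 h to 6 h at Tagln, Vcl and Lima1, 3 of the 9 genes tested, against 60.4% of 14678 genes, and fell at 0, against 1.05%. The 9 members tested, all but Cnn1, had a median log2 ratio of 0.18 where all genes tested had 1.68. The 2 replicates at 0 h differed widely here. Acta2 had 63200 bp in A and 4600 bp in B at 0 h, and 40021 and 36821 bp at 6 h, so the later value was lower in A and higher in B. Myl9 had 44845 and 6245 bp at 0 h and 23045 and 10045 bp at 6 h. Tpm1 was lower at 6 h in both replicates, with 48200 and 38000 bp at 0 h and 35000 and 25600 bp at 6 h. Lima1 went from 36700 to 145959 bp in B and from 139800 to 159100 bp in A. The thin list of replicate B at 0 h bears on most of these directions. Without replicate A, 6 genes were higher at 6 h. Without replicate B the calls at Vcl and Lima1 were lost, and the 3 genes higher were Tagln, Cnn1 and Cnn2.

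**Figure D5:**
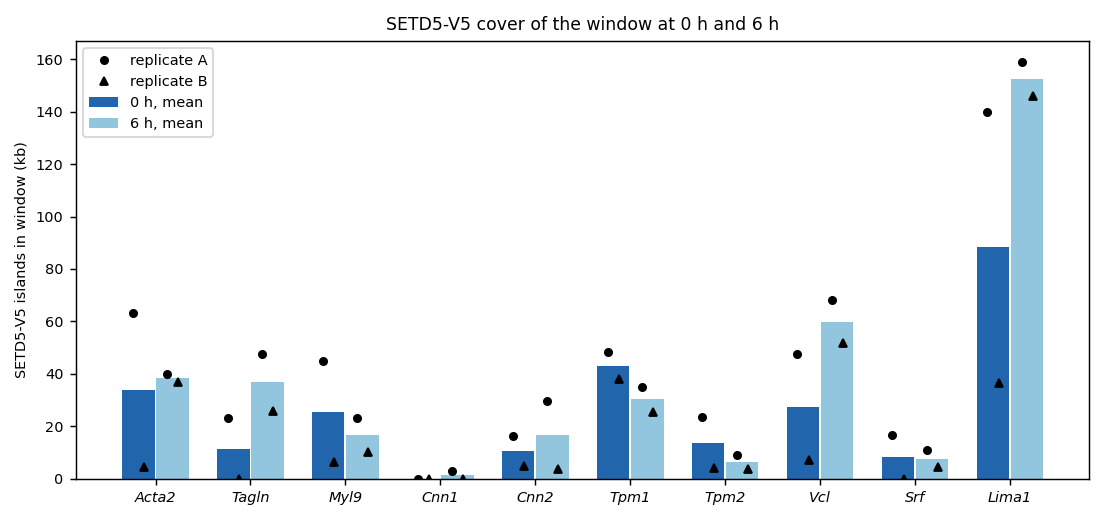
SETD5-V5 cover of each window in kb at 0 h (dark bars) and 6 h (light bars), bars for the mean of 2 replicates, circles for A and triangles for B. The replicates at 0 h lie far apart at every gene but Cnn1, which had no island then, and Tpm1. Tpm1 and Tpm2 are lower at 6 h in both replicates, though Tpm2 in B went only from 4000 to 3800 bp.

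Of the 9 lost H3K27ac regions, 4 had a SETD5-V5 island in both replicates at 6 h, against 23.3% of lost regions, and of the 8 gained regions 6 did, against 36.5%. Those 6 were 3 of the 4 at Vcl and all 3 at Lima1. Endogenous SETD5, with 1 library per time, had no island in any of the 10 windows at 0 h, where 11.2% of genes had one. At 6 h it had 4 islands covering 18800 bp at Lima1 and none at the other 9 genes, against 20.9% of genes. The Lima1 islands had 56.4% or more of their list ranked higher, so they were not among its strongest.

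H3K4me1, also with 1 library per time and so without a replicate check, was lower at 48 h by at least 1.5-fold at Acta2 (44847 to 28421 bp) and Tpm1 (31400 to 15600 bp), against 15.9% of 15330 genes. It was higher at Tagln (8600 to 27800 bp) and Cnn1 (600 to 3200 bp), against 31.7%. Myl9, whose promoter H3K27ac was lost in empty-vector cells, had 24645 bp of H3K4me1 in its window at 0 h and 26645 bp at 48 h. Much of this lay on the Dlgap4 side, where an island at 48 h ran from -51.35 to -28.75 kb of the start. At Myl9 itself H3K4me1 was shorter and lower in rank at 48 h. The outermost start went from 2400 to 1800 bp (38.7% and 66.8% of islands ranked higher). The internal start 3.1 kb downstream went from 3000 to 800 bp (20.4% and 92.1%). At Acta2, Tpm1 and Tagln the direction of H3K4me1 over the window was thus that of empty-vector H3K27ac. At their own starts this held only in part. The outermost Tpm1 start, which had lost its H3K27ac island, went from 800 to 3200 bp of H3K4me1 (68.6% and 36.3% of islands ranked higher). The internal Tpm1 starts went from 2000 bp to no island. The Tagln start went from 1200 to 1600 bp but was lower in rank (59.3% and 72.6%). The Acta2 start went from 5400 to 3600 bp. At Myl9 the direction differed over the window but was the same at the gene's own starts.

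Other SRF-linked genes were taken from a list by name. Of 26 further actin and contractile genes linked to SRF, 8 were lower at 48 h (among them Zyx, Mylk, Smtn and Filip1l) and 6 higher (among them Actg1, Actn1 and Cfl1) in empty-vector cells. Between vectors at 48 h, 3 of the 26 were higher with SETD5 and 3 lower. These counts stand beside 15.2% and 25.2% of all genes for the change with time, and 11.2% and 13.4% for that between vectors.

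The mean profile of the 10 genes over the 8 H3K27ac libraries, on the log2 scale with each gene centred on its own mean, was taken as a reference. Each of the 10 genes is part of this mean, and genes with larger changes weigh more in it, so their r with it is in part built in. With that limit, r was highest for Myl9 (Pearson's r 0.93) and Tpm1 (0.87), and was negative for Srf (-0.68), Tagln (-0.39) and Lima1 (-0.34). Among 12015 other genes, those most like it over the 8 libraries were Nrap (0.988), Ikbip (0.987), Mrpl11 (0.982), Col5a2 (0.980) and Fam13c (0.976), with no p since the 8 points share conditions and list size. Measured to its near side, the farthest H3K27ac region reaching into each window lay 32.6 to 47.4 kb from the gene body. The nearest one wholly outside lay 50.3 to 78.8 kb away. Regions at Acta2, Tagln, Myl9, Cnn2 and Vcl crossed the window's edge, and only their bases inside it counted toward cover.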

How the data were processed

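The authors mapped ChIP-seq reads to mm9 and called islands in each library with SICER, without pooling replicates; the submitters' processing notes also name Bowtie2. Each deposited list gives chromosome, start, end and the caller's score. The score was used only to rank islands within a list. Gene models and sequence came from the mm9 genome and its GENCODE annotation, and 0 islands ran past a chromosome end. The cover of a window is the bases of islands inside it. Genes with a mean cover of at least 1000 bp over the libraries compared were counted as tested. A promoter is 1000 bp on either side of any annotated start, and its island the highest-scoring one there. H3K27ac regions are the islands of 8 lists merged where they overlap. Ratios on the log2 scale had 1000 bp added. All 10 genes, and examples of other SRF-linked genes by call, are named; the rule for likeness took the 5 highest correlations. Members and lists were chosen with earlier results of these data known, and the rule on promoter rank after its values were seen. The letters A and B are the labels' own, and nothing in the labels says that a letter marks a shared culture. Interval counts were checked on simulated data. Python 3.11.15, numpy 2.4.6, pandas 2.3.3, pysam 0.24.0 and samtools 1.23.1 were used. One further gene list is not reported here. The alternatives are given in the closing section.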

Additional observations from a re-analysis of the deposited data

Results flagged for a closer look

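The promoter island of Tpm2 changed rank in opposite directions in the 2 kinds of cells. In empty-vector cells the percent of islands ranked above it fell by 37.3 points in replicate A and fell by 19.3 points in replicate B between 0 h and 48 h. In SETD5 cells it rose by 20.7 points in A and by 5.29 points in B. The difference between the vectors was -41.3 points on the mean of both letters. It was not tested, and the cover of the Tpm2 window had a ratio of 1 in empty-vector and 0.769 in SETD5 cells.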

How the results depend on the processing

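The fall at Acta2 and Tpm1 in empty-vector cells held under the 10 alternatives run, and that at Myl9 under 9, Vcl taking its place when only islands above the median score counted. Genes with more H3K27ac at 48 h were 2 with equal island numbers, above the median score, within 10 kb or with nearest islands only, and 3 with no fold minimum (1 to 2 without a replicate). In SETD5 cells 7 were lower at 48 h with no fold minimum. Between vectors at 48 h, 4 were higher above the median score and 5 with nearest islands, and 1 was lower with no fold minimum. At 0 h the count of 1 became 0 with whole islands lying mostly inside the window, the share of list cover or the replicate block, 2 above the median score, 3 within 10 kb and 6 with no fold minimum (0 to 2 without a replicate). For SETD5-V5 the count of 3 became 1 with equal numbers or the replicate block and 0 within 10 kb, with nearest islands or as a share of list cover (3 to 6 without a replicate). Its promoter count of 5 became 3 at 6 h with equal numbers (5 to 8 without a replicate) and 3 at 0 h above the median score. With no rank step, chosen after seeing the data, 7 promoters were higher with SETD5 at 48 h (4 to 7 without a replicate). The replicate block took ratios within each letter, moved no other count by over 1.5-fold, and left 2 genes, without Myl9, lower at 48 h in SETD5 cells. Each comparison had 80 alternative log2 ratios over the 10 genes. More than the combined SD of the replicates separated 24 of them from the main value in empty-vector cells over time. In SETD5 cells over time 18 did so, and between vectors at 48 h 16 did. A reversal of sign was scored only for genes called in the main setting, and 0 were found. Depth per island is unknown.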
